A study of Homo sapiens with 12 samples.

Results

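The 43 genes described here are immediate early genes and feedback regulators of the mitogen-activated protein kinase (MAPK) pathway. They were chosen by symbol, and a gene was counted when its symbol stood in both deposited tables. All 43 were found, out of 26485 genes in each table. RNA was sequenced from HEK293T, a line of human embryonic kidney cells transformed with adenovirus DNA and later given the SV40 large T antigen. The cells had been transfected with polyethylenimine and plasmids of the PX330-GFP type that encoded a single guide RNA (sgRNA), named Luciferase or 6T, with or without the Cas9 nuclease. The 12 libraries of polyA RNA formed 4 groups of 3, Luciferase with Cas9, Luciferase without Cas9, 6T with Cas9 and 6T without Cas9. All 4 groups had been transfected and carried a GFP plasmid with an sgRNA, so no group shows untransfected cells. The Luciferase sgRNA takes its name from an insect enzyme whose gene human cells lack, and the labels used here do not say what the 6T sgRNA targets.

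Each table compares a condition A with a condition B for 1 sgRNA. Nothing in the headers ties Cas9 to A or to B, and the 2 tables may differ in this, so differences are given as condition B over condition A. The labels do not say that replicates were separate cultures, so p-values measure only the spread between these libraries. In bulk RNA, fewer cells that express a gene and less of its RNA per cell cannot be told apart.

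Immediate early genes are transcribed within minutes of a stimulus without new protein synthesis. Growth factors reach them through Ras, Raf, MEK and ERK, which activate ternary complex factors bound with serum response factor at serum response elements, and stress reaches them through the JNK and p38 kinases. Their products include transcription factors such as FOS, JUN and EGR1, and inhibitors that end the signal, among them MAPK phosphatases, Sprouty and Spred proteins and proteins that degrade short-lived mRNAs.

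Reads of single libraries were recovered as whole numbers from the deposited means, and they are given as normalized reads, that is, reads divided by the library's size factor. Within a condition the libraries were named 1 to 3 from the smallest size factor to the largest, which matches no replicate label. Reads assigned to genes ranged from 19399375 to 38076941 in Luciferase B, against 5884892 to 8242529 in Luciferase A, and from 6658152 to 8294165 in 6T B, against 6354743 to 8258999 in 6T A. Depth thus went with condition in the Luciferase table, and its part in the results was not tested. All 8 neural and renal genes typical of HEK293T had a mean of 10 or more in both tables. Of 5 blood markers reported here, 2 (CD3E and HBB) were at 0 in both tables and 0 reached 10, and 4 of 5 fibroblast markers reached 10, among them COL1A1. The summed fibroblast markers ranged from 569 to 747 normalized reads per library, and the groups compared overlapped. These summed blood markers ranged from 7.27 to 11.6 normalized reads in Luciferase A, against 2.45 to 6.24 in 6T A, and overlapped in the other comparisons, and their part in the results was not tested.

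Promoter sequence was available for 29 of the 43 genes in the RefSeq table (GRCh38.p14). Upstream stretches of 250 bases are shown for 5 members that hold a match to a classical response site and to which the results return. Capitals mark matches, on either strand, to a serum response element (3 forms of the CArG box), a cyclic AMP response element (CRE, TGACGTCA) or a TEAD site (CATTCC, or GGAATG on the other strand), and no match overlaps another. SRF lies at chr6:43171019-43171268 (plus strand), EGR1 at chr5:138465229-138465478 (plus), DUSP1 at chr5:172771196-172771445 (minus), JUND at chr19:18281623-18281872 (minus) and CTGF at chr6:131951373-131951622 (minus).
SRF: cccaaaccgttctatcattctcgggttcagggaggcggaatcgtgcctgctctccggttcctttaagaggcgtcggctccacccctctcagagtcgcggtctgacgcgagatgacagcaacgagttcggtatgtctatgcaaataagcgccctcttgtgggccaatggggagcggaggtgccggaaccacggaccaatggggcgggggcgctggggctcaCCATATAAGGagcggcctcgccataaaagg
EGR1: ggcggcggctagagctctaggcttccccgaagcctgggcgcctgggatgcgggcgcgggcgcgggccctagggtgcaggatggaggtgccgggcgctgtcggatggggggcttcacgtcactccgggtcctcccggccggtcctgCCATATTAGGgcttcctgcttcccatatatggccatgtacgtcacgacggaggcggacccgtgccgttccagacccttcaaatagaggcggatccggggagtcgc
DUSP1: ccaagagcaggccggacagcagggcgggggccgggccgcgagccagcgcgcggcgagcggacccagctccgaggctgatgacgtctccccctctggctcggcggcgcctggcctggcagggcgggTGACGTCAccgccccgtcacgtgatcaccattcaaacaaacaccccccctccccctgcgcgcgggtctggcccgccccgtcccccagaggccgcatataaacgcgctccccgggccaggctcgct
JUND: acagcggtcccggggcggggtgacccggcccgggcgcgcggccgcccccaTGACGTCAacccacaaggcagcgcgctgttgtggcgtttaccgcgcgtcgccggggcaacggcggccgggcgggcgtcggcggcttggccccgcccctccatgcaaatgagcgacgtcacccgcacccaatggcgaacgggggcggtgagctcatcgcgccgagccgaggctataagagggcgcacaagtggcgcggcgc
CTGF: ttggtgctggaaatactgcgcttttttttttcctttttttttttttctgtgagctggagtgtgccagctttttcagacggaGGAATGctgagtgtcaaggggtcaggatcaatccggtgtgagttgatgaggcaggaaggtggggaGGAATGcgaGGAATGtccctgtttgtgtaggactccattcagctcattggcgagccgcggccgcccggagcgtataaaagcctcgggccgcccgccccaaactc
In SRF the match to a serum response element form spanned bases 30 to 21 before the transcription start, and in EGR1 bases 105 to 96. The CRE of DUSP1 spanned bases 125 to 118 and that of JUND bases 200 to 193, and MAFF had one at bases 54 to 47. CTGF had 3 TEAD matches, the first at bases 169 to 164. Counted from 250 bases before to 50 after the start, a serum response element form was found in 2 of 29 members (6.90%) and 0.139% of 27305 promoters. The CRE was found in 3 of 29 members (10.3%) and 1.98% of promoters, the TEAD site in 4 of 29 (13.8%) and 14.0%, the AP-1 site TGACTCA in 1 of 29 (3.45%, FOSL2) and 4.92%, and the EGR site GCGTGGGCG in 0 of 29 and 0.784%. These counts describe letters only. The alternative forms of each site were not searched, so lower-case letters can hold them.

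Measured per kilobase of exon, JUN was the most abundant of the 43 genes (2579.6 normalized reads per kb over the 12 libraries), followed by RHOB (2011), MYC (1072) and JUND (1040.2). FOS, the partner of JUN in the classical AP-1 factor, stood at 25.8 per kb and EGR1 at 29.8. The lowest levels were those of SPRY4 (0.5304), DUSP6 (1.12) and ETV5 (1.75), all of which are induced by ERK signalling. A mean of 10 or more normalized reads, which was required for a gene to enter the limma test, was reached by 41 members in the Luciferase table (all but DUSP6 and SPRY4) and by 40 in the 6T table (all but DUSP6, SPRY4 and ETV5).

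No member passed a test of condition B against A in either table. In the authors' deposited DESeq test with Benjamini-Hochberg adjustment, 0 of 43 members were called under the Luciferase sgRNA, where 0% of 20194 tested genes were called, and 0 of 43 under the 6T sgRNA, where 0.0416% of 19246 were called. At an unadjusted p under 0.05 the authors' deposited tables held 1 member under the Luciferase sgRNA (FOSL1), against 1.22% of all genes, and 0 members under the 6T sgRNA, against 0.868% of all genes. The adjusted p was 1 for every member in both of the authors' deposited tables. limma on the recovered reads also called 0 members in both tables, and 0% of all genes. At an unadjusted p under 0.05 limma held 4 of 41 members under the Luciferase sgRNA (FOSL1, DUSP1, PHLDA1 and CYR61), against 9.59% of all genes, and 0 of 40 under the 6T sgRNA, against 2.36%.

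In the authors' deposited tables the median log2 fold change of the members with a mean of 10 or more was −0.07 under the Luciferase sgRNA, with 15 higher and 26 lower in B, beside a median of −0.01 over all such genes, of which 51.0% were lower. Under the 6T sgRNA their median was 0.04, with 22 higher and 18 lower in B, beside −0.03 over all such genes, of which 57.8% were lower. The members' median thus lay below that of all genes in the first table and above it in the second, and both gaps were smaller after correction for GC content. Across genes limma's log2 fold change of B over A moved by −0.21 for each 10% of transcript GC under the Luciferase sgRNA and by 0.07 under the 6T sgRNA, and the members are GC-rich (median 56.7%, against 50.3% for all genes tested). After a linear GC correction of each library the members' limma median under the Luciferase sgRNA was −0.01 (20 higher, 21 lower), as was that of all genes, against −0.07 (18 higher, 23 lower) without the correction. For the 6T sgRNA it was 0.0033 (20 higher, 20 lower) after the correction, beside −0.0094 over all genes, against 0.05 (22 higher, 18 lower) without it. Between the lowest and the highest members the log2 fold change spanned −0.56 to 0.81 under the Luciferase sgRNA and −0.56 to 0.85 under the 6T sgRNA. limma's 95% intervals show how large a change the libraries could hide. They lay wholly within a 2-fold change for 39 of 41 members under the Luciferase sgRNA (all but ETV4 and PHLDA1) and for 36 of 40 under the 6T sgRNA (all but EGR3, NR4A2, KLF2 and SIK1).

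**Figure D1:**
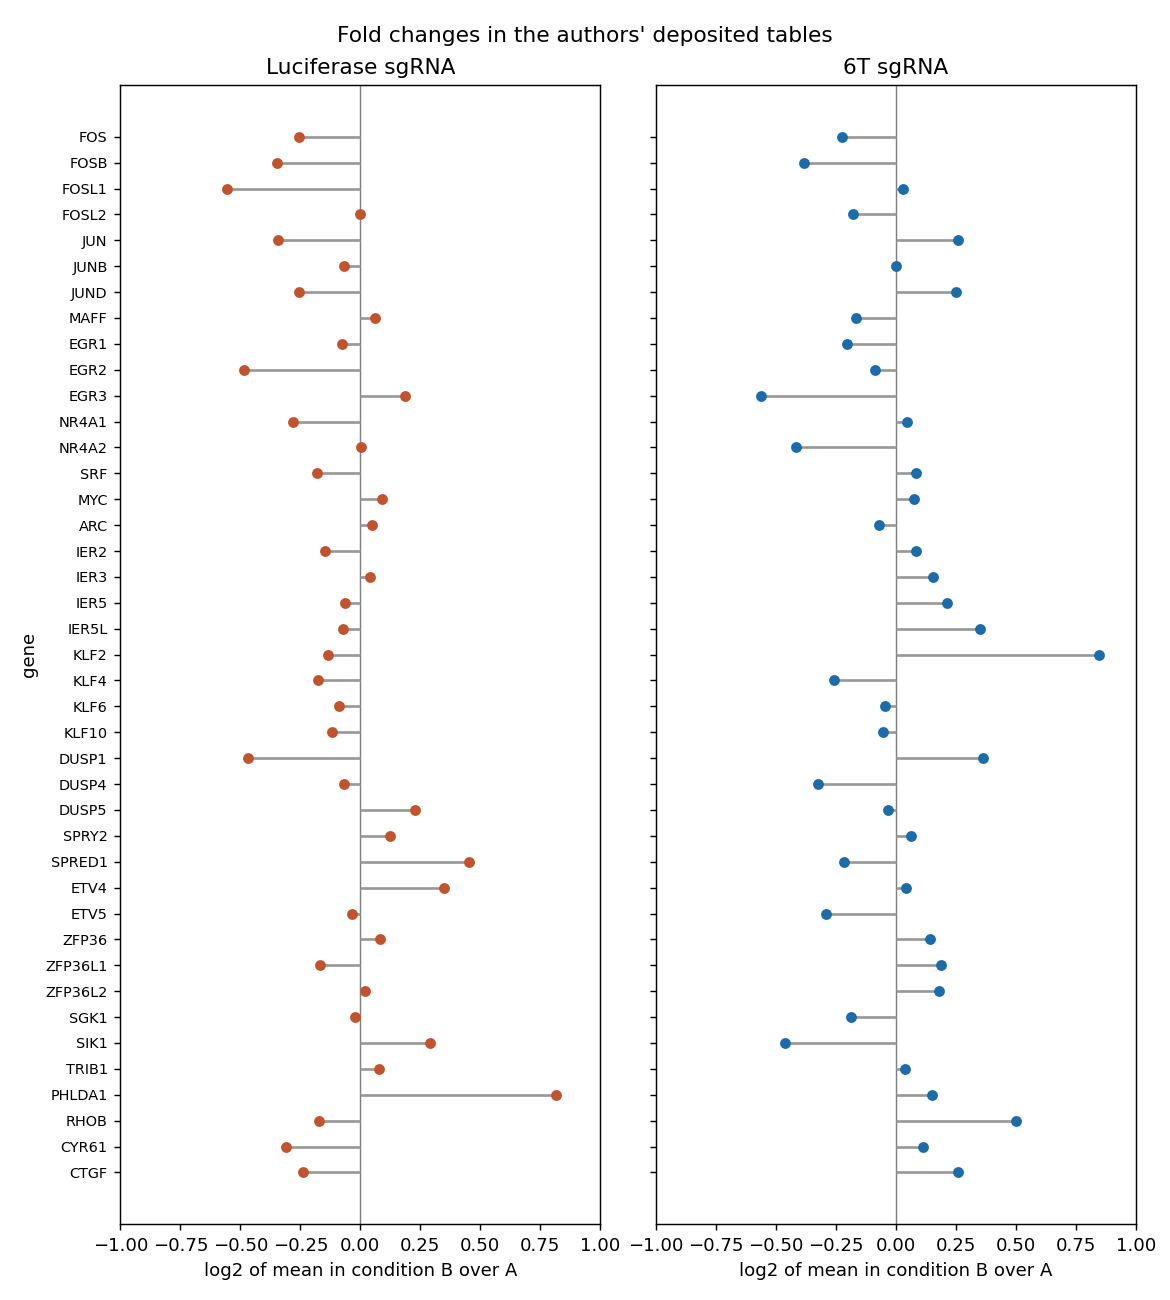
Log2 of the mean in condition B over that in condition A for the 41 members with a mean of 10 or more over the 12 libraries, as deposited by the authors, under the Luciferase sgRNA (left) and the 6T sgRNA (right). Points lie between −0.56 and 0.85, and none passed the authors' test.

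The AP-1 subunits are the basic leucine zipper proteins that pair at AP-1 sites. The 8 genes grouped here are those of AP-1 subunits and partners, MAFF included. Under the Luciferase sgRNA 1 was higher in B (MAFF) and 7 were lower in the authors' deposited table (median log2 −0.26), FOSL2 at −0.0017. Of all genes with a mean of 10 or more, 51.0% were lower there. Under the 6T sgRNA 3 were higher and 5 lower (median −0.09), beside 57.8% of all such genes lower. FOSL1, which encodes the Fos relative FRA1, had 73.6, 56.8 and 55.01 normalized reads in Luciferase B, against 102, 74.2 and 95.8 in Luciferase A. All Luciferase B libraries lay below all Luciferase A libraries, with a limma log2 fold change of −0.55 (SE 0.19, 95% interval −0.98 to −0.12, adjusted p = 0.455). Its authors' deposited log2 fold change was −0.56 (unadjusted p of DESeq's test 0.0384, adjusted p = 1). Under the 6T sgRNA it had 54.6, 54.5 and 37.01 in B, against 49.2, 51.2 and 42.9 in A, and the groups overlapped. FOSB, another Fos relative, had 149, 111 and 150.2 in Luciferase B, against 215, 161 and 147 in Luciferase A, and 97.1, 105 and 155 in 6T B, against 155, 149.8 and 160.4 in 6T A. Its mean was lower in B in both tables, but the groups overlapped in each. The limma log2 fold change of FOSB was −0.34 (adjusted p = 0.455) under the Luciferase sgRNA and −0.41 (SE 0.19, 95% interval −0.84 to 0.02, adjusted p = 1.00) under the 6T sgRNA. The value under the Luciferase sgRNA was −0.18 without Luciferase A1 and −0.20 without Luciferase B2, and that under the 6T sgRNA was −0.62 without 6T B3.

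FOS itself averaged 71.8 ± 17.4 normalized reads in Luciferase B and 85.7 ± 7.72 in Luciferase A (SD, n = 3, as throughout), and 81.2 ± 18.5 in 6T B and 94.8 ± 16.5 in 6T A. FOSL2, which encodes FRA2, averaged 122 ± 12.3 in Luciferase B and 123 ± 27.1 in Luciferase A, and 94.8 ± 19.2 in 6T B and 107 ± 14.8 in 6T A. All of these differences were smaller than the spread between libraries. JUNB, a less active relative of JUN, averaged 561 ± 55.7 in Luciferase B and 588 ± 62.9 in Luciferase A, and 536 ± 62.7 in 6T B and 536 ± 56.4 in 6T A. Its exons share 259 bases with HOOK2 on the opposite strand, and the use of strand in counting is not stated. MAFF, a small Maf protein, averaged 72.4 ± 6.88 in Luciferase B and 69.5 ± 12.5 in Luciferase A, and 62.9 ± 10.1 in 6T B and 70.8 ± 22.5 in 6T A.

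JUND, the Jun protein with the steadiest expression in most cells, had 2047, 1656 and 1676 normalized reads in Luciferase B, against 2619, 1873 and 1925 in Luciferase A, and 1697, 2273 and 2252 in 6T B, against 1947, 1639 and 1652 in 6T A. Its mean was lower in B under the Luciferase sgRNA and higher in B under the 6T sgRNA, and the groups overlapped in both. limma gave a log2 fold change of 0.24 (SE 0.13, 95% interval −0.05 to 0.53, adjusted p = 1.00) under the 6T sgRNA, which became 0.12 after GC correction and 0.38 without library 6T B1. JUN had 7598, 7018 and 7371 in Luciferase B, against 13101, 7549.9 and 7214 in Luciferase A, and 6779.5, 14582 and 11168 in 6T B, against 10240.3, 6935 and 10027 in 6T A. A single library, Luciferase A1, stood above the other Luciferase libraries, and 6T B2 stood above the other 6T libraries. The limma log2 fold change of JUN was −0.29 (interval −0.73 to 0.16) under the Luciferase sgRNA and 0.21 (interval −0.35 to 0.77) under the 6T sgRNA. Without Luciferase A1 the value under the Luciferase sgRNA was −0.01, and without 6T B2 that under the 6T sgRNA was −0.04.

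Among the other transcription factors, the EGR proteins are zinc-finger factors that bind GC-rich sites, and NR4A1 and NR4A2 are orphan nuclear receptors. EGR1 averaged 87.2 ± 7.95 in Luciferase B and 91.98 ± 17.0 in Luciferase A, and 90.4 ± 6.03 in 6T B and 104 ± 11.6 in 6T A. EGR2 had 16.2, 21.6 and 17.7 in Luciferase B, against 31.4, 23.2 and 23.04 in Luciferase A, where all B libraries lay below all A libraries, and 17.03 ± 4.62 in 6T B and 18.1 ± 0.546 in 6T A. The limma log2 fold change of EGR2 under the Luciferase sgRNA was −0.46 (SE 0.23, 95% interval −0.99 to 0.07, adjusted p = 0.455). EGR3 had 37.1, 30.6 and 32.2 in Luciferase B, against 33.04, 23.2 and 31.5 in Luciferase A, and 28.8, 18.2 and 19.1 in 6T B, against 32.3, 23.7 and 41.6 in 6T A. In both tables the groups overlapped, and limma gave EGR3 −0.54 (SE 0.30, 95% interval −1.22 to 0.14, adjusted p = 1.00) under the 6T sgRNA. Without library 6T A3, its highest, that value was −0.35.

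NR4A1 had 447, 376 and 407 normalized reads in Luciferase B, against 598, 441 and 453 in Luciferase A. Library Luciferase A1 was the highest, and the limma log2 fold change of −0.27 (SE 0.14, 95% interval −0.58 to 0.05, adjusted p = 0.455) was −0.13 without it and −0.10 after GC correction. Under the 6T sgRNA it averaged 425 ± 43.4 in B and 412 ± 58.9 in A. NR4A2 averaged 46.1 ± 0.508 in Luciferase B and 45.98 ± 2.16 in Luciferase A, and 39.5 ± 14.1 in 6T B and 52.7 ± 14.4 in 6T A. Its libraries were close together under the Luciferase sgRNA and ranged from 27.3 to 54.9 in 6T B, against 36.2 to 63.1 in 6T A. ARC, best known as a synaptic regulator in neurons, averaged 89.8 ± 8.43 in Luciferase B and 86.95 ± 15.4 in Luciferase A, and 63.98 ± 6.11 in 6T B and 67.1 ± 11.6 in 6T A. MYC, the growth regulator, averaged 3068 ± 192 in Luciferase B and 2885 ± 285 in Luciferase A, and 3549 ± 283 in 6T B and 3368 ± 313 in 6T A. Neither gene differed between conditions beyond the spread between libraries.

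SRF, the factor that binds the serum response element and has a match to such an element in its own promoter (shown above), had the smallest spread between libraries of all members. It had 1549.7, 1488 and 1426 normalized reads in Luciferase B, against 1778, 1607 and 1673 in Luciferase A, and 1410.5, 1445 and 1460.1 in 6T B, against 1279.8, 1429 and 1362 in 6T A. The Luciferase groups did not overlap, B being lower, and the 6T groups overlapped. limma gave log2 fold changes of −0.18 (SE 0.08, 95% interval −0.36 to 0.0028, adjusted p = 0.455) under the Luciferase sgRNA and 0.09 (interval −0.10 to 0.27) under the 6T sgRNA. After GC correction the value was −0.02 under the Luciferase sgRNA and 0.03 under the 6T sgRNA. Without library 6T A1 the uncorrected 6T value was 0.04.

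The groups of 6 of 41 members did not overlap under the Luciferase sgRNA (FOSL1, EGR2, SRF, DUSP1 and CYR61 lower in B, PHLDA1 higher), which is 14.6% of members, against 16% of all genes tested. Under the 6T sgRNA the groups of 4 of 40 did not overlap (IER2, IER5 and ZFP36L2 higher in B, SPRED1 lower), which is 10% of members, against 7.89% of all genes. Both shares were close to the background.

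IER2, IER3, IER5 and IER5L carry the immediate early response name, and IER5 is known to act with heat shock factor HSF1. IER2 had 808, 883 and 861 normalized reads in 6T B, against 798, 802 and 806 in 6T A, without overlap. The limma log2 fold change was 0.08 (SE 0.09, 95% interval −0.11 to 0.28, adjusted p = 1.00), and 0.02 after GC correction. IER5 had 1203, 1036 and 1156 in 6T B, against 975, 1026 and 933 in 6T A, again without overlap and with a limma log2 fold change of 0.21 (SE 0.09, 95% interval −0.0041 to 0.42, adjusted p = 1.00). Under the Luciferase sgRNA IER2 averaged 929 ± 69.1 in B and 1029 ± 126 in A, and IER5 1199 ± 121 in B and 1255 ± 84.6 in A, and both overlapped. IER5L had 224, 236 and 215 in Luciferase B, against 236, 224 and 249.8 in Luciferase A, and 265, 180.1 and 240.0 in 6T B, against 165, 217 and 156 in 6T A. It had the smallest p of all members in the 6T table (0.0692 unadjusted in the authors' deposited DESeq test), and limma gave 0.35 (SE 0.19, 95% interval −0.07 to 0.77, adjusted p = 1.00). Without library 6T B1 the limma value was 0.23. IER3 averaged 108 ± 21.04 in Luciferase B and 105 ± 5.71 in Luciferase A, and 109.8 ± 16.6 in 6T B and 98.8 ± 7.77 in 6T A.

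The KLF genes encode zinc-finger factors, KLF10 being an early gene of TGF-beta signalling. KLF2 had 55.3, 51.7 and 53.2 normalized reads in Luciferase B, against 79.3, 43.3 and 53.3 in Luciferase A, and 50.1, 148 and 81.2 in 6T B, against 53.8, 52.4 and 48.99 in 6T A. Library 6T B2 held by far the highest value and 6T B1 lay within the range of 6T A. limma gave KLF2 0.70 (SE 0.34, 95% interval −0.06 to 1.45, adjusted p = 1.00) under the 6T sgRNA, the largest log2 fold change of any member there, with 0.30 without library 6T B2 and 1.07 without library 6T B1. KLF4 averaged 70.3 ± 7.26 in Luciferase B and 79.5 ± 11.3 in Luciferase A, and 69.3 ± 13.1 in 6T B and 82.8 ± 5.31 in 6T A. KLF6 averaged 709.8 ± 70.7 in Luciferase B and 754 ± 126 in Luciferase A, and 859 ± 236 in 6T B and 887 ± 135 in 6T A. For both, the means differed by less than the larger SD in the Luciferase table, and the groups overlapped in both tables. KLF10 averaged 469 ± 25.4 in Luciferase B and 509 ± 135 in Luciferase A, and 500.1 ± 140.2 in 6T B and 519.9 ± 107 in 6T A.

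The negative feedback arm comprises the dual-specificity phosphatases, which remove phosphate from MAPKs, and the Sprouty and Spred proteins, which restrain Ras and Raf. DUSP1, a nuclear phosphatase of p38, JNK and ERK with the CRE shown above, had 593, 519.6 and 526 normalized reads in Luciferase B, against 962, 622 and 683 in Luciferase A, and 497, 980.3 and 728 in 6T B, against 641, 554 and 523 in 6T A. All Luciferase B libraries lay below all Luciferase A libraries, whereas 6T B held both the lowest and the highest 6T library. limma gave DUSP1 −0.44 (SE 0.16, 95% interval −0.80 to −0.08, adjusted p = 0.455) under the Luciferase sgRNA and 0.31 (interval −0.16 to 0.79) under the 6T sgRNA. Without Luciferase A1 the value under the Luciferase sgRNA was −0.26, and without 6T B2 that under the 6T sgRNA was 0.08. DUSP4, which acts on nuclear ERK, averaged 94.7 ± 3.58 in Luciferase B and 99.2 ± 10.6 in Luciferase A, and 93.8 ± 20.5 in 6T B and 117 ± 4.44 in 6T A. DUSP5, another nuclear ERK phosphatase, averaged 226 ± 32.9 in Luciferase B and 194 ± 38.2 in Luciferase A, and 194 ± 40.96 in 6T B and 199 ± 38.6 in 6T A. DUSP6, the cytoplasmic ERK phosphatase, lay below the mean of 10. It had 3.55, 3.92 and 6.396 in Luciferase B, against 4.96, 9.28 and 6.06 in Luciferase A, and 4.55, 8.38 and 4.78 in 6T B, against 1.54, 3.74 and 4.899 in 6T A. The authors' deposited test gave DUSP6 an unadjusted p of 0.612 under the Luciferase sgRNA and 0.462 under the 6T sgRNA.

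SPRED1, which recruits neurofibromin to Ras, had 47.7, 83.5 and 75.2 normalized reads in Luciferase B, against 51.2, 51.03 and 48.5 in Luciferase A, and 59.2, 54.5 and 54.9 in 6T B, against 66.1, 64.9 and 64.9 in 6T A. The 6T B libraries all lay below the 6T A libraries, and under the Luciferase sgRNA B2 and B3 lay above all A libraries while B1 lay below them. limma gave SPRED1 0.41 (SE 0.22, 95% interval −0.10 to 0.91, adjusted p = 0.455) under the Luciferase sgRNA, with 0.65 without library B1, 0.25 without library B2 and 0.23 after GC correction. Under the 6T sgRNA its limma log2 fold change was −0.21 (interval −0.60 to 0.17). SPRY2 averaged 186 ± 13.96 in Luciferase B and 171 ± 15.3 in Luciferase A, and 199 ± 21.2 in 6T B and 190.2 ± 14.6 in 6T A. SPRY4 was near 0, with 3.55, 1.96 and 3.33 in Luciferase B, against 3.304, 3.09 and 0 in Luciferase A, and 1.52, 12.6 and 4.78 in 6T B, against 1.54, 1.25 and 4.899 in 6T A. It too lay below the mean of 10, and the authors' deposited test gave it an unadjusted p of 0.791 under the Luciferase sgRNA and 0.327 under the 6T sgRNA. With the minimum mean lowered to 1, limma tested all 43 members and called 0 in both tables.

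ETV4 and ETV5 are ETS factors of the PEA3 group and sensitive ERK targets. ETV4 had 13.2, 19.98 and 14.8 normalized reads in Luciferase B, against 6.61, 9.28 and 21.8 in Luciferase A, and 19.7, 27.9 and 23.9 in 6T B, against 27.7, 12.5 and 29.4 in 6T A. ETV5 had 11.2, 10.6 and 12.02 in Luciferase B, against 9.91, 7.73 and 16.97 in Luciferase A, and 3.03, 13.96 and 7.16 in 6T B, against 6.15, 9.98 and 13.5 in 6T A. In some groups the libraries differed several-fold, and all groups overlapped within their table. ETV4 also shares 68 exon bases with DHX8 on the opposite strand, and ETV5 shares 164 with DGKG on the same strand.

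ZFP36, ZFP36L1 and ZFP36L2 bind AU-rich elements and trigger decay of mRNAs, among them those of immediate early genes. ZFP36 averaged 69.1 ± 7.77 in Luciferase B and 65.4 ± 3.798 in Luciferase A, and 69.6 ± 5.26 in 6T B and 63.0 ± 8.96 in 6T A. ZFP36L1 had 417, 439 and 441 in Luciferase B, against 509, 436 and 510.4 in Luciferase A, and 423, 489 and 473 in 6T B, against 425, 422 and 369 in 6T A. Its groups overlapped in both tables, and its mean was lower in B under the Luciferase sgRNA and higher in B under the 6T sgRNA. ZFP36L2 had 942, 945 and 923 in 6T B, against 879.9, 865 and 741 in 6T A, without overlap, and a limma log2 fold change of 0.18 (SE 0.10, 95% interval −0.04 to 0.40, adjusted p = 1.00), which was 0.10 without library 6T A3. In the Luciferase table it averaged 942 ± 27.4 in B and 929 ± 89.4 in A. All 3 decay factors were higher in 6T B in the authors' deposited table, with log2 fold changes of 0.14 to 0.19, none of which passed the test.

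The remaining members are regulators of other kinds. PHLDA1, an early gene with a pleckstrin homology-like domain, had 33.5, 37.6 and 37.9 normalized reads in Luciferase B, against 11.6, 20.1 and 30.3 in Luciferase A, without overlap. The limma log2 fold change was 0.88 (SE 0.32, 95% interval 0.15 to 1.61, adjusted p = 0.455), the largest of any member under the Luciferase sgRNA, and 0.54 without library A1, its lowest. Under the 6T sgRNA PHLDA1 averaged 35.9 ± 5.502 in B and 32.4 ± 2.91 in A. RHOB, a small GTPase whose gene answers both growth factors and DNA damage, had 3592, 3915 and 3742 in Luciferase B, against 5515, 3495 and 3681 in Luciferase A, and 4418, 9849 and 5230.5 in 6T B, against 4899, 4129.7 and 4779 in 6T A. Library 6T B2 and library Luciferase A1 were again the high ones, and the groups overlapped in both tables. TRIB1, a pseudokinase that brings substrates to the COP1 ubiquitin ligase, averaged 443 ± 11.2 in Luciferase B and 419.8 ± 46.6 in Luciferase A, and 572 ± 56.4 in 6T B and 556 ± 90.3 in 6T A. SGK1, the serum and glucocorticoid regulated kinase, averaged 59.6 ± 6.78 in Luciferase B and 60.6 ± 15.9 in Luciferase A, and 68.3 ± 6.89 in 6T B and 77.8 ± 5.98 in 6T A. SIK1, a salt-inducible kinase and CREB target, averaged 21.4 ± 4.43 in Luciferase B and 17.5 ± 2.32 in Luciferase A, and 12.6 ± 5.82 in 6T B and 17.4 ± 3.18 in 6T A. The groups of these 3 genes overlapped in both tables.

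CYR61 and CTGF encode secreted matricellular proteins that respond to SRF and to YAP with TEAD, and CTGF has the 3 TEAD matches shown above. CYR61 had 240.1, 221 and 223 normalized reads in Luciferase B, against 327, 266 and 255 in Luciferase A, without overlap, and 196, 296 and 236 in 6T B, against 246, 179.7 and 247 in 6T A, with overlap. limma gave CYR61 −0.30 (SE 0.13, 95% interval −0.59 to −0.01, adjusted p = 0.455) under the Luciferase sgRNA, and −0.19 without library A1. CTGF had 72.6, 59.2 and 67.5 in Luciferase B, against 69.4, 92.8 and 72.7 in Luciferase A, and 71.3, 68.4 and 52.5 in 6T B, against 56.9, 48.7 and 55.1 in 6T A. Its limma log2 fold change was −0.23 (interval −0.62 to 0.17) under the Luciferase sgRNA and 0.24 (interval −0.20 to 0.69) under the 6T sgRNA. The value under the Luciferase sgRNA was −0.10 without Luciferase A2 and −0.15 without Luciferase B2, and that under the 6T sgRNA was 0.16 without 6T B1 and 0.38 without 6T B3.

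Several members had their highest value of a group in the same library. JUN, RHOB, KLF2 and DUSP1 were each highest in library 6T B2 among the 6T B libraries and in library Luciferase A1 among the Luciferase A libraries, as the bar plots of 6 genes show. Relative to the mean of the other 2 libraries of its group, 6T B2 was 1.62 times as high for JUN, 2.04 times for RHOB, 2.26 times for KLF2 and 1.60 times for DUSP1. Luciferase A1 was 1.77 times as high for JUN, 1.54 times for RHOB, 1.64 times for KLF2 and 1.47 times for DUSP1. SRF varied far less. Its coefficient of variation within groups (root mean square over the 4 groups) was 4.38%, against 27.4% for JUN, 26.6% for RHOB, 31.3% for KLF2 and 21.4% for DUSP1. These 4 genes and both libraries were picked after their values were seen.

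**Figure D2:**
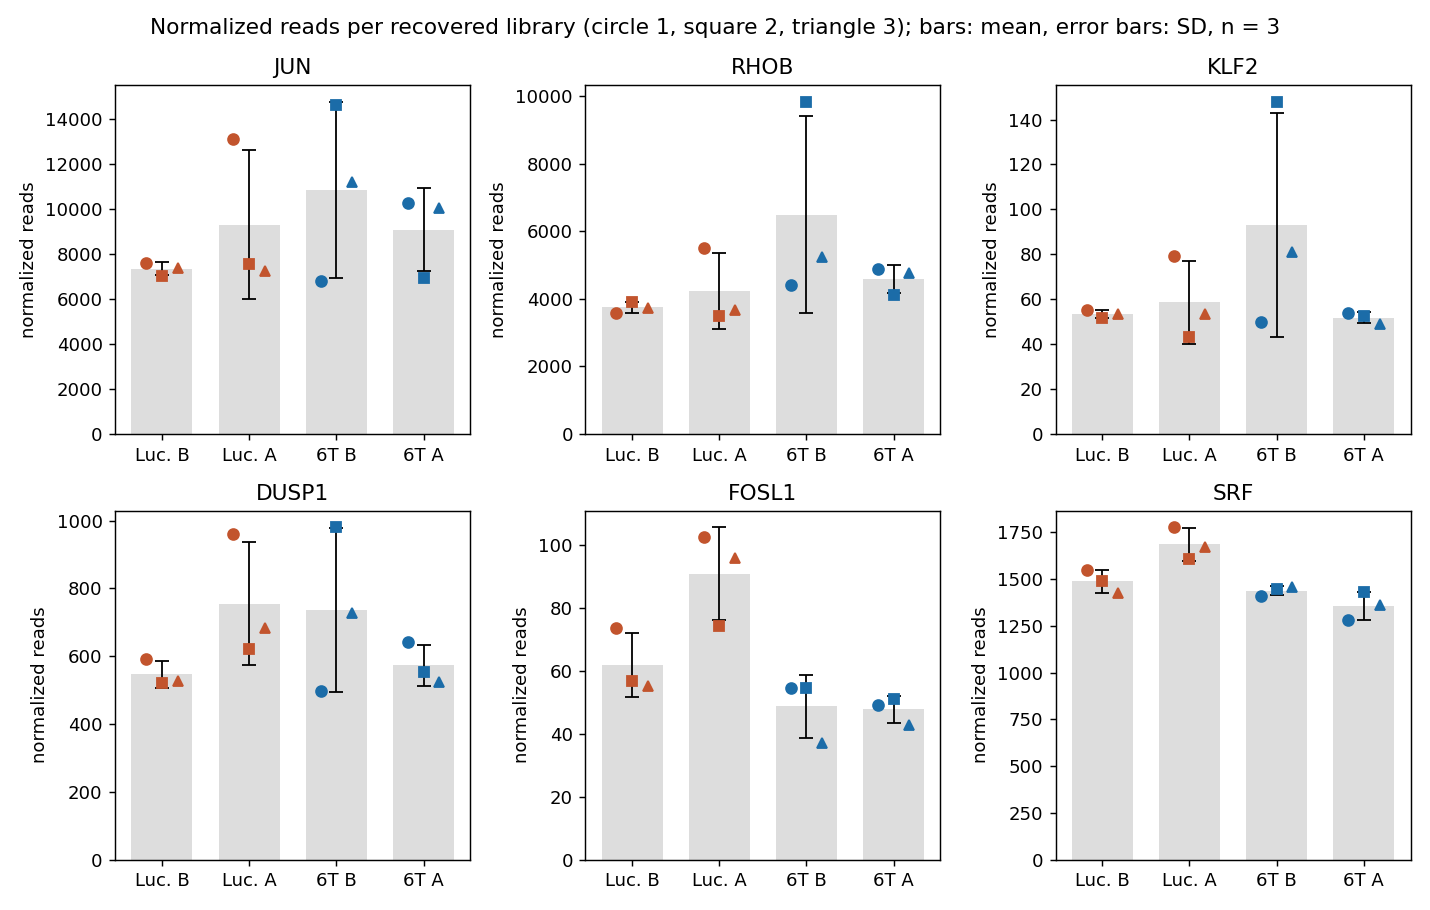
Normalized reads of 6 members in every recovered library, by sgRNA and condition (Luciferase B, Luciferase A, 6T B, 6T A), with bars for the mean and error bars for the SD of 3 libraries. JUN, RHOB, KLF2 and DUSP1 have 1 high library in Luciferase A (circle) and 1 in 6T B (square), FOSL1 has its highest mean in Luciferase A, and SRF varies little.

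Over all 41 members tested in the 12 libraries, Luciferase A1 was the highest library of its group for 22 (53.7%), against 38.1% of all genes, and 6T B2 was the highest of its group for 20 (48.8%), against 32.4% of all genes. Both held for 11 members (26.8%), namely JUN, JUND, EGR2, ARC, IER2, KLF2, KLF6, DUSP1, ZFP36, RHOB and CYR61, against 15.5% of all genes. Luciferase B1 was highest for 25 members (61.0%), against 44.1% of all genes, although the Luciferase B libraries differed little in most members. Library 6T B1 was the lowest of its group for 21 members (51.2%), against 34.6% of all genes. Not all members shared this pattern. 6T B2 was the lowest library of its group for 10 members (24.4%), against 37.1% of all genes. Luciferase A1 was the lowest of its group for 11 (26.8%), against 45.9%. FOS and DUSP5, for example, were lowest in 6T B2, with 94.03, 60.05 and 89.5 and 232, 151 and 201 normalized reads in 6T B. DUSP5 was lowest in Luciferase A1 as well.

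**Figure D3:**
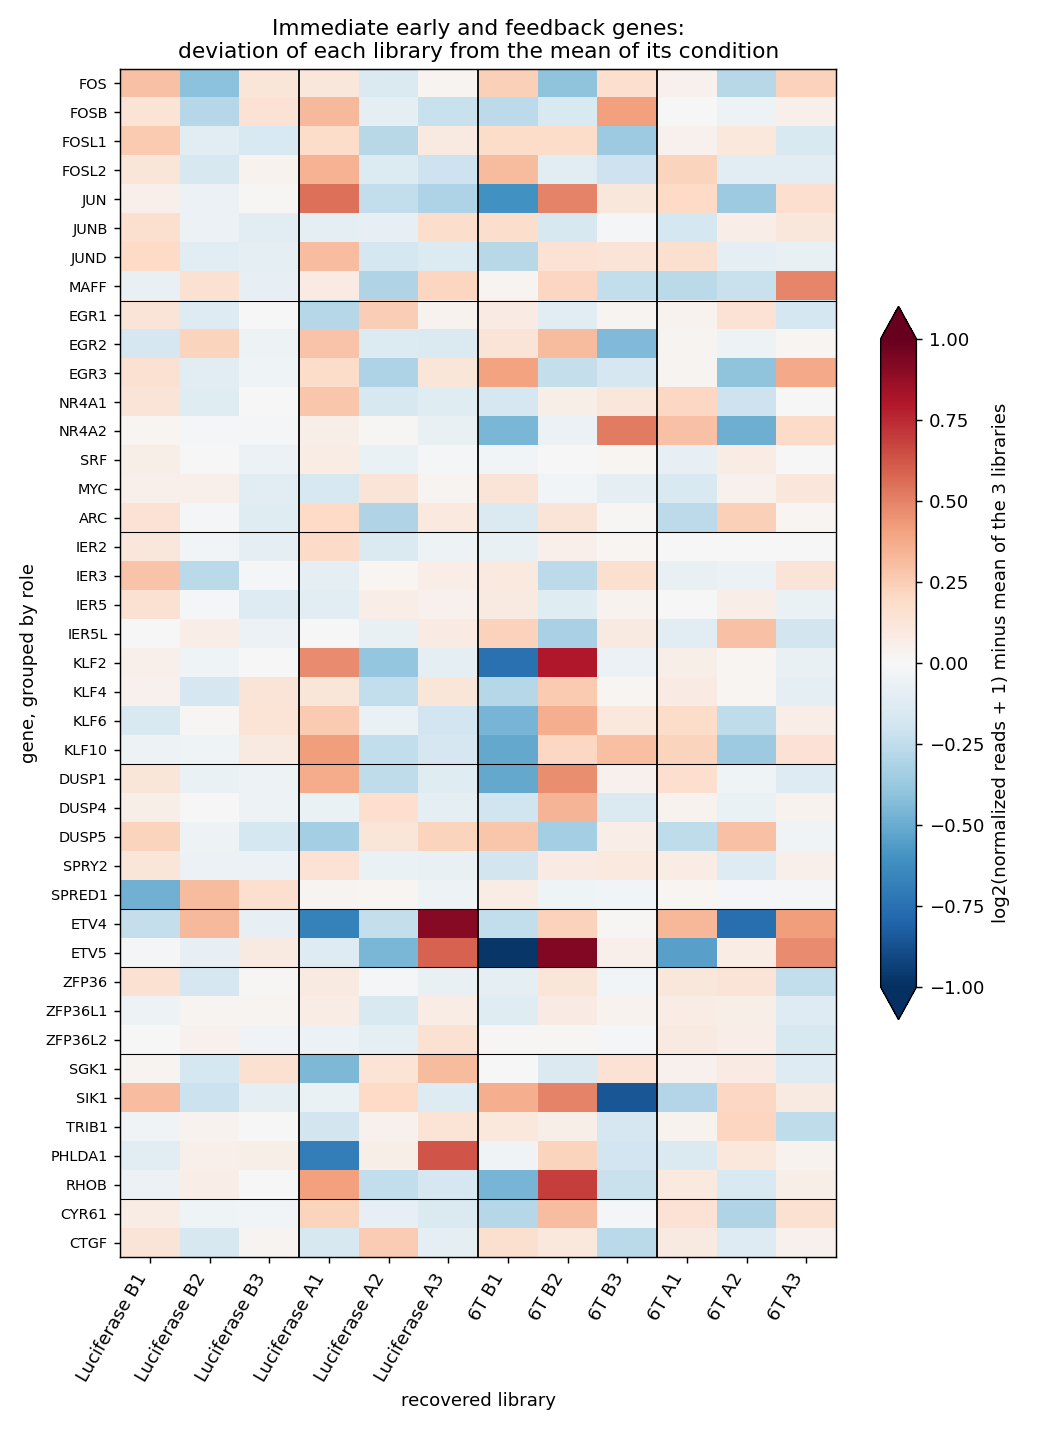
Deviation of log2(normalized reads + 1) in each recovered library (columns) from the mean of its group of 3, for the 41 members tested (rows, grouped by role), red for higher and blue for lower. Luciferase A1 and 6T B2 are red for JUN, RHOB, KLF2 and DUSP1 and 6T B1 is blue for them, while FOS and DUSP5 run the other way in 6T B2.

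**Figure D4:**
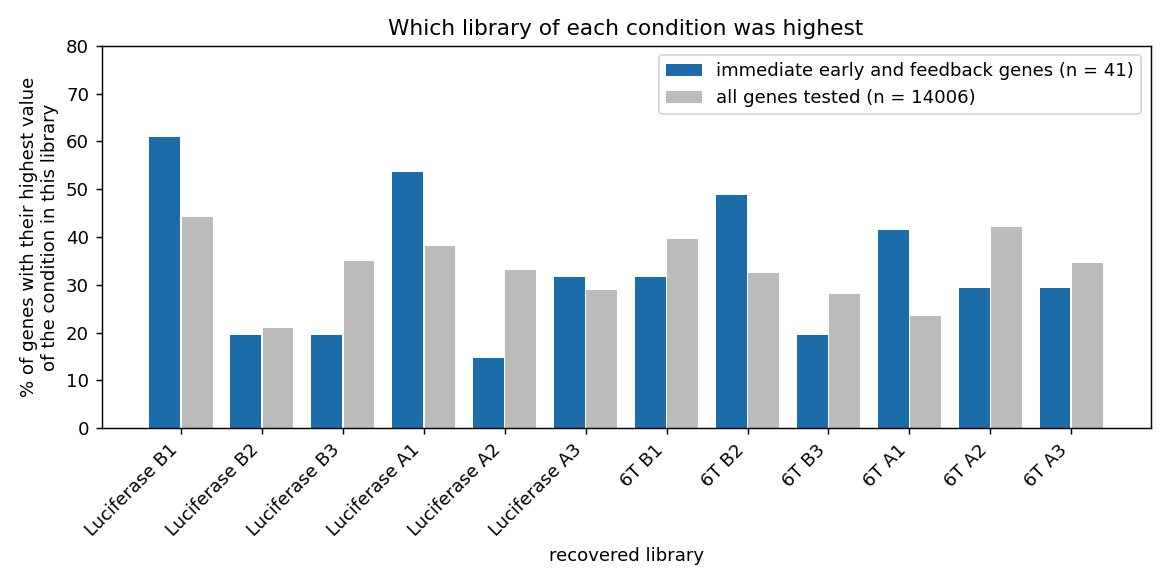
Share of genes (percent) whose highest value of the group of 3 fell in each recovered library, for the 41 members and for all 14006 genes tested. The members' share exceeds that of all genes most in 6T A1 (41.5%, against 23.4%), Luciferase B1, 6T B2 and Luciferase A1.

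Both tables shared 1 normalization, since median-of-ratios factors computed over all 12 libraries together lay within 0.0505% of the recovered size factors, so levels could be set side by side across sgRNAs. limma tested over the 12 libraries whether the B over A change under the Luciferase sgRNA differed from that under the 6T sgRNA. It called 0 of 41 members, and 0% of 14006 genes. At an unadjusted p under 0.05 it held 5 members (12.2%), against 9.42% of all genes. The B and A of the tables may not mean the same, so this difference has no settled direction. For DUSP1 the log2 difference was −0.75 (SE 0.30, 95% interval −1.39 to −0.12, adjusted p = 0.485), and −0.33 without libraries Luciferase A1 and 6T B2. JUND had −0.48 (SE 0.21, 95% interval −0.93 to −0.04, adjusted p = 0.485), which was −0.26 without these libraries and −0.03 after GC correction. The other members with the smallest p were SRF, with −0.27 (SE 0.11, 95% interval −0.49 to −0.04, adjusted p = 0.485), ZFP36L1, with −0.35 (SE 0.15, 95% interval −0.66 to −0.04, adjusted p = 0.485), and SPRED1, with 0.62 (SE 0.27, 95% interval 0.04 to 1.21, adjusted p = 0.485). After GC correction SRF stood at −0.06, ZFP36L1 at −0.11 and SPRED1 at 0.39. In the authors' deposited tables, 40 members had a mean of 10 or more under both sgRNAs. Of these, 8 (20%) were higher in B in both, against 13.5% of all 13917 such genes. Lower in both were 11 (27.5%), against 22.1%. Another 14 (35%) were lower in B under the Luciferase sgRNA and higher under the 6T sgRNA, against 28.7%. The reverse held for 7 (17.5%), against 35.8%.

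Of the 5 comparisons, that of the Luciferase with the 6T libraries within condition A held the most genes at an unadjusted p under 0.05, among members as among all genes. limma called 0 of 41 members, against 0.0643% of 14006 genes. At an unadjusted p under 0.05 it held 11 members (26.8%), against 31.4% of all genes. The groups of 12 members (29.3%) did not overlap, against 33% of all genes. These were FOSL1, EGR2, SRF, IER2, IER5, IER5L, ZFP36L1, CYR61 and CTGF, higher under the Luciferase sgRNA, and DUSP4, SPRED1 and TRIB1, lower under it. Both shares lay below those of all genes. Since A may not mean the same in both tables, sgRNA and Cas9 cannot be told apart within condition A, nor within condition B.

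FOSL1 had the smallest p, with 102, 74.2 and 95.8 normalized reads in Luciferase A, against 49.2, 51.2 and 42.9 in 6T A. Every Luciferase A library exceeded every 6T A library, and the limma log2 of Luciferase over 6T was 0.90 (SE 0.20, 95% interval 0.47 to 1.34, adjusted p = 0.0539). In condition B it had 73.6, 56.8 and 55.01 under the Luciferase sgRNA, against 54.6, 54.5 and 37.01 under the 6T sgRNA, again without overlap, with a limma log2 of 0.35 (SE 0.20, 95% interval −0.09 to 0.79, adjusted p = 0.942). That value was 0.17 without library 6T B3 and 0.22 without library Luciferase B1. SRF had 1778, 1607 and 1673 in Luciferase A, against 1279.8, 1429 and 1362 in 6T A, and a limma log2 of 0.31 (SE 0.08, 95% interval 0.15 to 0.48, adjusted p = 0.0578). IER5 had 1158, 1314 and 1292 in Luciferase A, against 975, 1026 and 933 in 6T A, and a limma log2 of 0.36 (SE 0.10, 95% interval 0.15 to 0.56, adjusted p = 0.063). Neither pair of groups overlapped, and both missed the threshold. IER2 had 1169.7, 928 and 989 in Luciferase A, against 798, 802 and 806 in 6T A, and a limma log2 of 0.35 (SE 0.10, 95% interval 0.14 to 0.56, adjusted p = 0.0642). TRIB1 had 368, 431 and 459 in Luciferase A, against 566, 641 and 462 in 6T A, and a limma log2 of −0.40 (SE 0.13, 95% interval −0.68 to −0.12, adjusted p = 0.0811). IER2 was thus higher and TRIB1 lower under the Luciferase sgRNA in every library of condition A.

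The gap between the Luciferase and the 6T libraries of condition A also went with GC content. Across genes the limma log2 of Luciferase over 6T moved by 0.30 for each 10% of GC in condition A, but by 0.02 in condition B, and the difference between the B over A changes moved by −0.28. After a linear GC correction of each library, 16 members were higher and 25 lower under the Luciferase sgRNA in condition A (median log2 −0.10), against 24 higher and 17 lower without it (median 0.06). Over all genes the median was −0.01 without the correction and 0.0018 after it. The members' median thus lay above that of all genes without the correction and below it after the correction. SRF then stood at 0.08 and IER2 at 0.06, while FOSL1 stood at 0.69 (adjusted p = 0.135, limma), IER5 at 0.46 (adjusted p = 0.0851) and TRIB1 at −0.35. With reads scaled by library total in place of the authors' size factors, limma called 3 members, against 2% of all genes (FOSL1, SRF and IER5, adjusted p = 0.0438 to 0.0447), and without library Luciferase A2 it called 3, against 7.35% of all genes (FOSL1, SRF and IER2, adjusted p = 0.0421 for each). All genes called then numbered 280 with scaling by library total and 1029 without library Luciferase A2, against 9 with the authors' size factors and all libraries.

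**Figure D5:**
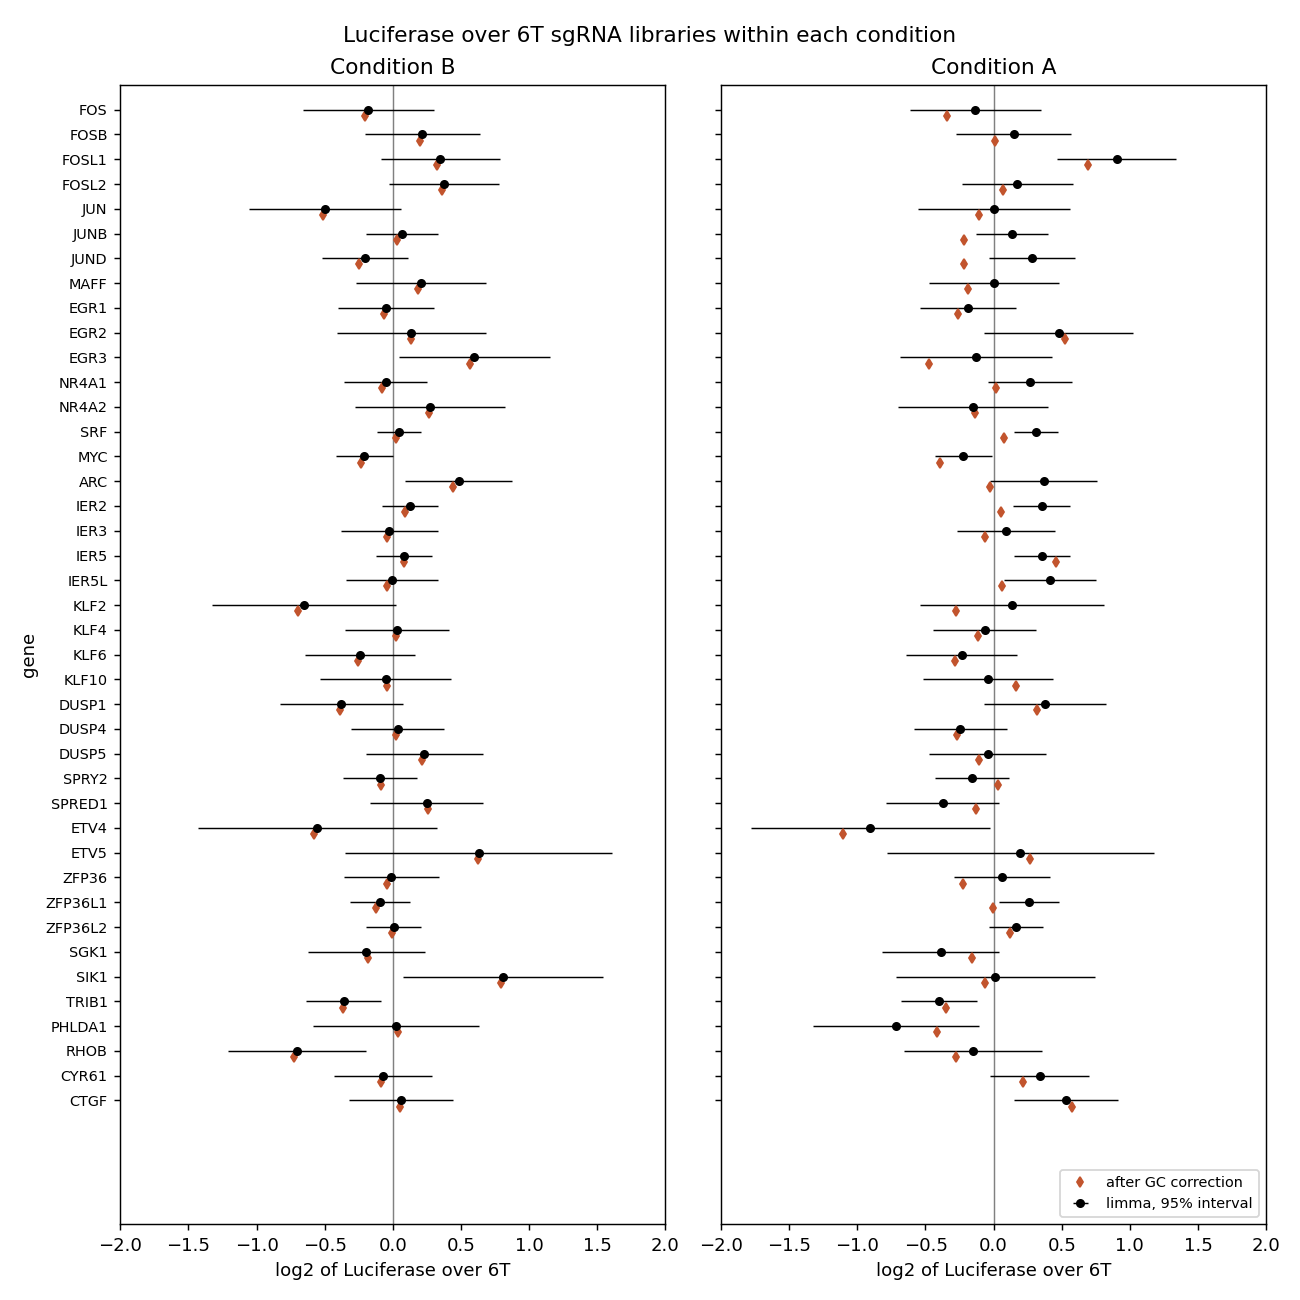
Limma log2 of Luciferase over 6T for each member in condition B (left) and condition A (right), with its 95% interval (black) and the value after GC correction (diamonds). In condition A most diamonds lie left of their points, SRF and IER2 move close to 0, and FOSL1 and IER5 stay to the right.

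Within condition B depth went with sgRNA, with 19399375 to 38076941 reads assigned to genes in Luciferase B, against 6658152 to 8294165 in 6T B. Its part in the results was not tested. In this condition limma called 0 of 41 members and 0% of all genes when the Luciferase libraries were set against the 6T libraries. At an unadjusted p under 0.05 it held 5 members (12.2%), against 5.41% of all genes, and the groups of 7 members (17.1%) did not overlap, against 12.9% of all genes. FOSL1, EGR3, ARC and SIK1 were the higher ones under the Luciferase sgRNA and MYC, TRIB1 and RHOB the lower ones. RHOB had 3592, 3915 and 3742 normalized reads in Luciferase B, against 4418, 9849 and 5230.5 in 6T B, with a limma log2 of −0.70 (SE 0.24, 95% interval −1.21 to −0.20, adjusted p = 0.897). Without library 6T B2 that value was −0.36. TRIB1 had 432, 455 and 443 in Luciferase B, against 613, 595 and 507 in 6T B, with a limma log2 of −0.36 (SE 0.13, 95% interval −0.64 to −0.08, adjusted p = 0.9). It was lower under the Luciferase sgRNA in every library of both conditions. ARC had 98.98, 88.2 and 82.4 in Luciferase B, against 57.6, 69.8 and 64.5 in 6T B, with a limma log2 of 0.48 (SE 0.18, 95% interval 0.09 to 0.87, adjusted p = 0.9). EGR3 had 37.1, 30.6 and 32.2 in Luciferase B, against 28.8, 18.2 and 19.1 in 6T B, with a limma log2 of 0.60 (SE 0.26, 95% interval 0.04 to 1.16, adjusted p = 0.9). Neither pair of groups overlapped. SIK1 had 26.4, 18.02 and 19.7 in Luciferase B, against 15.2, 16.8 and 5.97 in 6T B, with a limma log2 of 0.81 (SE 0.34, 95% interval 0.08 to 1.54, adjusted p = 0.9), and 0.38 without library 6T B3, its lowest.

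No gene of the cascades that drive these genes was called between conditions. In the authors' deposited tables, 0 of 37 genes from growth factor receptors to ERK were called under either sgRNA, with 16 higher and 21 lower in B (median log2 −0.02) under the Luciferase sgRNA, and 14 higher and 23 lower (−0.04) under the 6T sgRNA. RPS6KA4, the kinase MSK2, had the smallest p of this list under the Luciferase sgRNA, with a mean of 381 in Luciferase B and 492 in Luciferase A. The 19 genes of the stress MAPK branch had 0 called in the authors' deposited tables, with 10 higher and 9 lower in Luciferase B and 6 higher and 13 lower in 6T B. MAPK8, the kinase JNK1, averaged 236 in Luciferase B and 182 in Luciferase A. In the authors' deposited DESeq test, 0 genes of these 2 lists had an unadjusted p under 0.05 under either sgRNA. Of all genes with a mean of 10 or more, 1.60% (Luciferase) and 1.02% (6T) did, and 51.0% and 57.8% were lower in B. limma held 2 of the 37 and 3 of the 19 under the Luciferase sgRNA, against 9.59% of all genes. Under the 6T sgRNA it held 1 of the 37 and 0 of the 19, against 2.36%. Of 24 SRF and YAP target genes 10 were higher and 14 lower in B in each of the authors' deposited tables, and 0 were called.

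In the authors' deposited tables, a further list of early response and feedback genes that are not members had 0 called under either sgRNA. It had 17 higher and 30 lower of 47 in Luciferase B (median log2 −0.10). Of all genes with a mean of 10 or more, 51.0% were lower there (median −0.01). In 6T B it had 24 higher and 22 lower of 46 (median 0.02), beside 57.8% of all such genes lower (median −0.03). At an unadjusted p under 0.05 limma held 10 of 47 under the Luciferase sgRNA, against 9.59% of all genes. Under the 6T sgRNA it held 3 of 46, against 2.36%. BTG1, an antiproliferative gene, averaged 609 in 6T B and 472 in 6T A, DUSP8, a phosphatase of JNK and p38, 523 in 6T B and 369.5 in 6T A, and PLK3, a stress kinase, 74.6 in 6T B and 50.3 in 6T A. These 3 had an unadjusted p of 0.0164, 0.0250 and 0.0465 in the authors' deposited DESeq test and an adjusted p of 1. They were the only ones of the 46 under 0.05 in that test, against 1.02% of all genes with a mean of 10 or more. Under the Luciferase sgRNA 0 of 47 were under 0.05, against 1.60%. Within condition A limma called 2 of these 47 genes between sgRNAs, against 0.0643% of all genes, 1 in each direction. LIF, a cytokine of the interleukin 6 family, had 152, 118 and 124 normalized reads in Luciferase A, against 52.3, 54.9 and 39.2 in 6T A (limma log2 of Luciferase over 6T 1.41, adjusted p = 0.0176). NFIL3, a basic leucine zipper repressor, had 117, 131 and 125 in Luciferase A, against 212, 226 and 235 in 6T A (limma log2 −0.84, adjusted p = 0.0305). Both were named after their values were seen, and without library Luciferase A1, 6T A1 or 6T A3 limma called no gene at all in this comparison.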

How the data were processed

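Per the submitters' processing notes, reads were aligned with STAR to hg38, counted with HTSeq and compared with DESeq, with no versions given. Per sgRNA, 1 deposited table gives the signal, that is, read counts divided by the authors' size factors and averaged over both conditions or within A or B, per the file headers. It also holds the authors' ratio of B to A, the deposited log2 of that ratio, and the p-value of the authors' test, raw and adjusted. The 5 rows of each table that name no gene, with 41.7% (Luciferase) and 38.7% (6T) of the summed means, were left out.

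The whole reads of each library were solved for from these means, since a low mean is a sum of multiples of 3 steps. A single solution was found for 99.65% to 99.99% of genes above 0, by condition, and for all members. The search was tested on simulated means. With limma 3.58.1 (R 4.3.3) a trended fit was made to log2(normalized reads + 1) of genes with a mean of 10 or more, and p-values were adjusted by Benjamini-Hochberg over all genes, over 6 libraries for B against A and 12 for the rest. A gene was called at an adjusted p under 0.05, and changes on this scale understate those of low genes.

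Members and lists were chosen with earlier results of these data known. Full statistics were given for the 5 members with the smallest p per comparison, and for a few more where groups did not overlap. Other lists were described by up to 3 genes. Alternatives covered the pseudocount, the filter, scaling, GC content (known for 94.7% of genes) and leaving out each library. A further blood marker of the list is not reported here.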

Additional observations from a re-analysis of the deposited data

How the results depend on the processing

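No paired analysis was possible because the recovered libraries carry no replicate number. Members called stayed at 0 in both tables, for the difference between sgRNAs and within condition B, under every alternative tried, and leaving out each library in turn gave 0 to 0 there. Within condition A, 3 members were called by limma with scaling by library total and 3 without library Luciferase A2, and leaving out each library gave 0 to 3, against 0 otherwise; the cause was not tested. Counting upstream bases only, the AP-1 site was found in 0 members, against 1 with 50 bases after the start. Values of single genes under alternatives were tallied only for the 5 members with the smallest p per comparison. Of these values, 440 kept their direction and side of the threshold. Another 6 passed it, all within condition A (FOSL1, SRF, IER2 and IER5). Members outside this tally could change direction, as JUN did under the 6T sgRNA without library 6T B2. Leaving out Luciferase A1 and 6T B2 together was chosen after seeing the data and called 0 members. All genes called within condition A ranged from 0 to 1029. The minimum mean of 10 kept DUSP6 and SPRY4 out of the limma test in both tables and ETV5 in the 6T table, and 3 libraries per group limit every test.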
